A study of Homo sapiens with 6 samples.

Results

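The glycolysis and gluconeogenesis isoenzymes described here are 41 genes, chosen by their names from the 35856 genes of the deposited expression table, and all 41 were found in it. RNA was sequenced from 6 libraries of HCCLM3, an established human hepatocellular carcinoma cell line. The 3 libraries labelled LINC00862 came from cells transfected with a vector carrying the long non-coding RNA LINC00862, and the 3 libraries labelled NC came from control cells. The study names an empty vector as the control of its mouse experiments with HCCLM3 cells. Its sequencing methods do not say what the NC cells received. The methods of the study name pcDNA3.1 as the vector backbone. Whether the sequenced cells were a stable pool, a clone or a transient transfection was not stated, nor whether the 3 libraries of a group came from separate cultures, so p-values measure the spread between these libraries, which may be technical. The comparison asks how overexpression of LINC00862 moved the expression of the enzymes, regulators and carriers of glucose breakdown and glucose synthesis, and which isoenzyme of each step carried the transcripts of its family.

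Glycolysis splits glucose into pyruvate in the cytosol, and gluconeogenesis runs the same path backwards in liver and kidney, with its own enzymes at the irreversible steps. Most steps have several isoenzymes encoded by different genes, and tissues use different sets of them. Normal hepatocytes are known for liver pyruvate kinase and the gluconeogenic enzymes, while many tumours use hexokinase 2, aldolase A, PKM and lactate dehydrogenase A and export lactate. Hypoxia-inducible factors (HIF) switch on many glycolytic genes.

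Of the 41 genes, 36 had enough counts to be tested, and 29 of these had an adjusted p under 0.05 (quasi-likelihood test in edgeR, p-values adjusted by Benjamini and Hochberg over the whole table). This was 80.6% of the tested members, against 64.2% of the 20741 genes tested overall. A total of 18 members fell and 11 rose, while 29.8% of all tested genes fell and 34.4% rose. With a fold change of at least 2 as well, 21 members were called, against 49.8% of all tested genes, and 14 of them fell and 7 rose, against 20.9% and 28.9%. The median log2 fold change was -0.49 over the 36 members and 0.11 over all tested genes. The 5 members that did not pass the filter were PFKFB1, PGAM2, PKLR, FBP2 and SLC2A2. The FPKM (fragments scaled to the length of the transcript and to the mapped fragments of the library) of the LINC00862 and NC libraries did not overlap for 30 of the 36 tested members, against 71.1% of those tested overall. Since the cells were sequenced in bulk, fewer cells of a type and less RNA per cell cannot be told apart.

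The roles moved in different directions, in counts to be read against the 34.4% of all tested genes that rose and the 29.8% that fell. The share called was 75.0% among regulators, gluconeogenic enzymes and carriers, near the 64.2% of all tested genes. Among the 19 glycolytic enzymes, 17 were tested, 11 fell and 3 rose, and the median of their log2 fold changes was -1.27. Of the 4 tested glucose and monocarboxylate carriers, 3 fell and 0 rose in edgeR (0 also at an unadjusted p under 0.05, in DESeq2 and in limma), and SLC16A1 was the one not called. Of the 4 tested gluconeogenic enzymes, 3 rose and 0 fell by the same measures, and PC, pyruvate carboxylase, was the one not called. The 8 tested regulators split into 3 that rose and 3 that fell, and 1 of the 3 lactate dehydrogenases fell while the other two rose. The glycolytic enzymes took 2.22%, 2.43% and 2.87% of all counts in NC replicates 1, 2 and 3, and 1.23%, 1.26% and 0.891% in LINC00862 replicates 1, 2 and 3. Their share of the counts was thus 2.51% ± 0.333 (SD, n = 3) in NC and 1.13% ± 0.205 (SD, n = 3) in LINC00862, without overlap (exact permutation test, two-sided p = 0.1, below which this test cannot go with 3 libraries a group). The plot of FPKM by library shows every member in these roles.

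**Figure D1:**
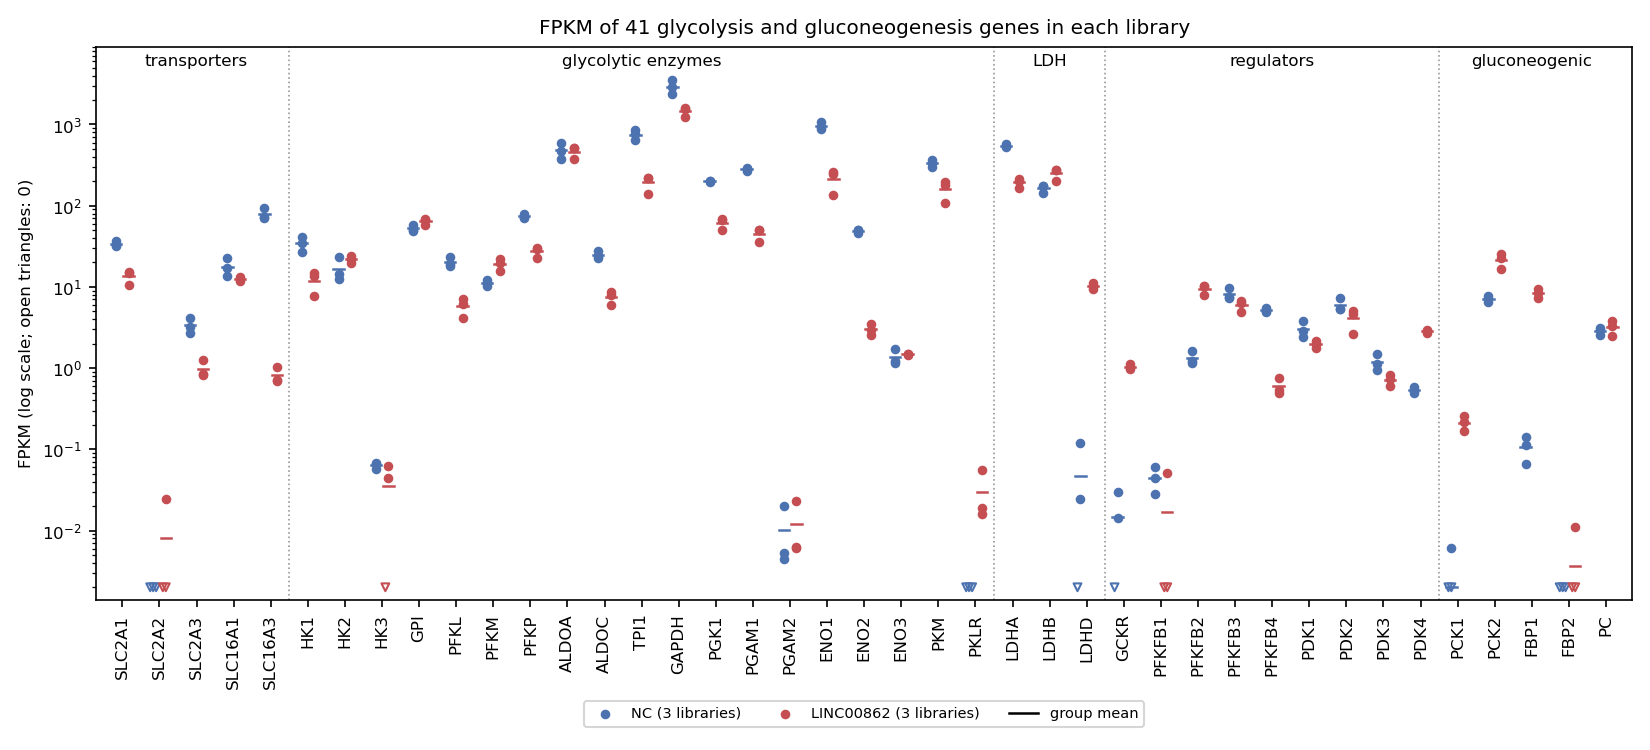
FPKM on a log scale of the 41 genes in each of the 3 NC and 3 LINC00862 libraries, grouped by role, with short lines for group means and open triangles for a value of 0. SLC16A3, ENO2 and PFKFB4 sit far lower in LINC00862, LDHD, GCKR, FBP1 and PCK1 sit far higher, and the points of ALDOA, ENO3 and PC overlap between the groups.

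Facts of the libraries that bear on all of these genes are given first. The overexpressed gene, LINC00862 (ENSG00000203721), had 11, 21 and 6 counts in NC and 145, 121 and 76 in LINC00862 (log2 fold change 3.22, SE 0.53, edgeR adjusted p = 0.000583). Total counts lay between 58241123 and 68229070. Across tested genes, which are not independent replicates, Spearman correlations of counts were 0.973 to 0.987 within a group and 0.768 to 0.774 between groups. The 10 genes with the highest counts took 8.42% to 11.7% of the counts in NC and 19.4% to 29.2% in LINC00862, with MT-CO1 first in each library and LINC00862 replicate 3 at the top of that range. Marker lists also moved with the groups. The 15 hepatocyte markers in the table summed to 53.3 to 55.9 CPM (counts scaled to library size) in NC and 11793 to 13977 CPM in LINC00862. Most of the counts in LINC00862 were those of FGA, FGB, FGG and CPS1, while ALB reached a mean of 1.51 FPKM there. Of 12 tested markers 10 were higher, and SERPINA1 (log2 fold change -3.55) and ASGR1 (-2.37) were lower. APOA2, APOH and TTR were among those at 0 in NC. The 4 hepatoma markers summed to 17.5 to 18.7 CPM in NC and 215 to 247 CPM in LINC00862, with GPC3 at 0 in NC and AFP at 0 in LINC00862. The 7 epithelial markers summed to 969 to 1412 CPM in NC and 1957 to 2263 CPM in LINC00862. Most of the counts in both groups were those of KRT8, which was not called (log2 fold change -0.28), and KRT18 (0.67). Of the 7 markers 6 rose, and the median log2 fold change of the list was 6.67, so the sum understates the change of the other markers. The 8 fibroblast or mesenchymal markers summed to 3140 to 3734 CPM in NC and 130 to 175 CPM in LINC00862. Most of the NC counts in this sum were those of VIM, which fell, as did THY1 and PDGFRB. COL1A1 and LUM rose, and COL1A2, COL3A1 and DCN were not called, so this list did not fall as a whole. Endothelial markers (10.01 to 15.99 CPM against 32.0 to 44.7), leukocyte markers (9.20 to 9.91 against 21.3 to 34.9) and skeletal muscle markers (0 to 0.240 against 0.616 to 0.798) were low in both groups. The part of these marker differences in the results below was not tested, and since each group holds its own cells, a response to LINC00862 and a difference between the cells of the groups cannot be told apart.

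Promoters are shown for 3 genes that fell and 1 that rose, because they let a reader see the letters that HIF is known to bind. These 4 are examples and do not stand for the members that fell or rose. The motif ACGTG was also present in 3 of the 8 members that rose and in 4 of the 6 not called, as given below. RefSeq promoters on GRCh38.p14 were available for 36 of the 41 genes, and PFKFB2, LDHD, PCK1, SLC2A3 and SLC16A1 were the genes without one. The 250 bases before the start were searched on both strands for ACGTG and GCGTG, the cores of the HIF response element. ACGTG also matches inside the wider E-box CACGTG, which other factors bind. Capitals mark the matches on either strand, and each line reads 5′ to 3′ on the strand of the gene. The starts are those of RefSeq and differ from the gene starts of the deposited table for ENO2, ALDOC, PGK1 and FBP1.
ENO2, chr12:6914330-6914579, plus strand: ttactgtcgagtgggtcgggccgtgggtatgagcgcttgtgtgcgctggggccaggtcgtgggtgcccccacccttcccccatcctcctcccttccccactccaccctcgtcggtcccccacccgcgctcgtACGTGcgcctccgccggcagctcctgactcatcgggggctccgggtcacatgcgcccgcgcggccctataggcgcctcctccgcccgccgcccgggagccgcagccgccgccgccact
ALDOC, chr17:28576896-28577145, minus strand: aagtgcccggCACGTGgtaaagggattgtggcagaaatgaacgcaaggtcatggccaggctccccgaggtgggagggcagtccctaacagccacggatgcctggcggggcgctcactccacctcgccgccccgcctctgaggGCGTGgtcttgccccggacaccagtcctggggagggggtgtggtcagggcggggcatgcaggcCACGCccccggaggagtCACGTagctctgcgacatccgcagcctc
PGK1, chrX:78103998-78104247, plus strand: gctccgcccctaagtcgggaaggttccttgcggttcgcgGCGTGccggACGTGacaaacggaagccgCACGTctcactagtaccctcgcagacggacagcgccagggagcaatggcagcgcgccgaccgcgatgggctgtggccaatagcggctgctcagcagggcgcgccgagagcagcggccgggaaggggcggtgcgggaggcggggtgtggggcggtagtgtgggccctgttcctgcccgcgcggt
FBP1, chr9:94639519-94639768, minus strand: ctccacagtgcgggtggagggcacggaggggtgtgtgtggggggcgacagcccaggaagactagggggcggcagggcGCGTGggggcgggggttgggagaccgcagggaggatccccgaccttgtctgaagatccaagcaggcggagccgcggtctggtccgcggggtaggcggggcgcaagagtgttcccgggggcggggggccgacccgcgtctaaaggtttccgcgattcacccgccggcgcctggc

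The ENO2 promoter held 1 match to ACGTG, PGK1 held 2 with 1 match to GCGTG, and ALDOC held 3 with 2 matches to GCGTG. The E-box CACGTG in ALDOC reads the same on both strands and gave 2 of its 3 matches to ACGTG. FBP1 held 1 match to GCGTG and none to ACGTG. The motif ACGTG was present at any listed start in 10 of the 17 members that fell, 3 of the 8 that rose, 4 of the 6 tested members that were not called and 1 of the 5 untested ones, against 21.7% of all 27305 genes with a promoter. GCGTG was present in 11 of the 17 members that fell, 2 of the 8 that rose, 3 of the 6 not called and 1 of the 5 untested, against 36.2% of all genes. These matches are a description of the letters in a short window, and genes with several listed starts have more chances of a match.

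The largest fall among the 36 tested members was that of SLC16A3. This gene (ENSG00000141526; chromosome 17, 82228397 to 82261129 on hg38) encodes MCT4, the monocarboxylate transporter that carries lactate out of glycolytic cells. Its counts were 41833, 42360 and 56407 in NC and 482, 613 and 437 in LINC00862. The groups were far apart, and no library of either group came near the other. SLC16A3 was 86.1-fold lower in LINC00862 (log2 fold change -6.43, SE 0.25, edgeR adjusted p = 1.32e-07), with 78.9 ± 13.2 FPKM in NC and 0.816 ± 0.183 FPKM in LINC00862 (SD, n = 3). CSNK1D overlaps the gene on the opposite strand with 14869 mean counts in NC and 8460 in LINC00862, and whether counting used the strand was not stated.

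SLC16A1, which encodes MCT1, the widely expressed lactate and pyruvate carrier, had 7641, 5780 and 4724 counts in NC and 4897, 4538 and 4037 in LINC00862. Its counts overlapped between the groups while its FPKM did not, and it was not called (log2 fold change -0.32, SE 0.16, edgeR adjusted p = 0.106). Without NC replicate 3 it was called, at -0.45 (edgeR adjusted p = 0.025). The make-up of the MCT pair turned over. SLC16A3 held 81.3% ± 5.72 of the summed FPKM of the pair in NC and 6.10% ± 0.948 in LINC00862 (SD, n = 3), and the ratio of SLC16A3 to SLC16A1 went from between 3.14 and 6.85 in NC to between 0.0561 and 0.0770 in LINC00862. The summed FPKM of the pair was 96.6 ± 9.83 in NC and 13.3 ± 0.990 in LINC00862.

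The glucose carrier genes SLC2A1 and SLC2A3 fell as well. SLC2A1 encodes GLUT1, the basal glucose transporter of many tumour cells, and had 16064, 13984 and 13990 counts in NC and 7790, 6550 and 4712 in LINC00862. Each LINC00862 library lay below each NC library, with a 2.18-fold fall (log2 fold change -1.13, SE 0.15, edgeR adjusted p = 0.000166). SLC2A3 encodes GLUT3, a high-affinity glucose transporter, and had 1681, 1276 and 1094 counts in NC and 397, 513 and 333 in LINC00862 (3.03-fold lower, log2 fold change -1.60, SE 0.22, edgeR adjusted p = 0.000193). GLUT1 held 91.0% ± 1.18 of the summed GLUT1, GLUT2 and GLUT3 FPKM in NC and 93.2% ± 1.39 in LINC00862 (SD, n = 3), with overlap (exact permutation test, p = 0.2). GLUT3 held 9.02% ± 1.18 in NC and 6.71% ± 1.33 in LINC00862, without overlap (exact permutation test, p = 0.1). The ratio of SLC2A1 to SLC2A3 lay between 8.80 and 11.75 in NC and between 11.81 and 18.13 in LINC00862. SLC2A2, the gene of the liver transporter GLUT2, had 0 counts in each NC library and 0, 6 and 0 in LINC00862. All 6 counts came from LINC00862 replicate 2, and no fold is given.

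Hexokinases trap glucose in the cell as glucose 6-phosphate. HK1, the widely expressed form, had 17374, 11095 and 14754 counts in NC and 6568, 6092 and 3219 in LINC00862. It was 2.57-fold lower without overlap (log2 fold change -1.36, SE 0.23, edgeR adjusted p = 0.000681). HK2, the insulin-sensitive form that many tumours use, had 9120, 5531 and 4980 counts in NC and 10000, 9423 and 7902 in LINC00862. NC replicate 1 lay within the LINC00862 range, and the log2 fold change was 0.59 (SE 0.19, edgeR adjusted p = 0.0245). Its call was lost without NC replicate 2 or 3 and without any 1 of the LINC00862 replicates, with log2 fold changes of 0.45 to 0.61 and edgeR adjusted p of 0.0539 to 0.0948. HK3 had between 13 and 16 counts in NC and between 0 and 16 in LINC00862 and was not called (log2 fold change -0.69, SE 0.94, edgeR adjusted p = 0.548).

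The hexokinase pair changed places. HK1 held 67.6% ± 5.12 of the summed FPKM of HK1, HK2 and HK3 in NC and 34.5% ± 5.96 in LINC00862, and HK2 held 32.3% ± 5.12 and 65.4% ± 5.92 (SD, n = 3). The ratio of HK1 to HK2 in FPKM lay between 1.79 and 2.78 in NC and between 0.383 and 0.617 in LINC00862. HKDC1, a further hexokinase that is not among the 41, rose from 0.274 ± 0.0208 to 7.34 ± 0.722 FPKM (log2 fold change 4.89, edgeR adjusted p = 7.74e-08). With HKDC1 counted in the family, in an alternative added after the data were seen, HK1 held 67.2% ± 5.07 in NC and 28.4% ± 5.25 in LINC00862, HK2 held 32.1% ± 5.11 and 53.7% ± 4.15, and HKDC1 held 0.543% ± 0.0813 and 17.9% ± 1.48 (SD, n = 3). The summed FPKM of HK1, HK2 and HK3 was 51.4 ± 12.2 in NC and 34.1 ± 5.79 in LINC00862. GPI, which turns glucose 6-phosphate into fructose 6-phosphate, had 35759, 34073 and 41245 counts in NC and 56104, 46865 and 40932 in LINC00862. LINC00862 replicate 3 lay within the NC range, and GPI had a log2 fold change of 0.46 (SE 0.15, edgeR adjusted p = 0.0274). Its call was lost without NC replicate 2 (log2 fold change 0.42), LINC00862 replicate 1 (0.42) or LINC00862 replicate 2 (0.47).

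Phosphofructokinase commits the sugar to glycolysis, and its liver, muscle and platelet forms are encoded by PFKL, PFKM and PFKP. PFKP had 26304, 26248 and 29023 counts in NC and 12491, 11035 and 8520 in LINC00862, 2.41-fold lower (log2 fold change -1.27, SE 0.15, edgeR adjusted p = 8.05e-05). PFKL had 11209, 10509 and 14087 counts in NC and 4158, 4239 and 2459 in LINC00862, 3.13-fold lower (log2 fold change -1.65, SE 0.21, edgeR adjusted p = 0.000119). PFKM rose, from 4919 to 5814 counts in NC to 7535 to 10856 in LINC00862 (log2 fold change 0.93, SE 0.14, edgeR adjusted p = 0.000389). The liver form therefore fell while the muscle form rose, in each case without overlap of the FPKM of the groups. PFKM held 10.7% ± 0.984 of the phosphofructokinase FPKM in NC and 36.4% ± 0.766 in LINC00862, PFKL held 19.1% ± 1.59 and 10.9% ± 1.24, and PFKP, with the highest level of the 3 in both groups, held 70.2% ± 1.40 and 52.7% ± 1.65 (SD, n = 3). The summed FPKM of the family fell from 106 ± 6.71 to 52.3 ± 8.73. SENP1 overlaps PFKM on the opposite strand, with 1254 mean counts in NC and 720 in LINC00862.

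Aldolase splits fructose 1,6-bisphosphate. ALDOA, the muscle and tumour form, had 95788, 117053 and 153188 counts in NC and 149066, 129100 and 95632 in LINC00862. The groups overlapped, and the log2 fold change was 0.10 (SE 0.23, edgeR adjusted p = 0.722), with a sign that changed with scaling by library size only and without NC replicate 1. ALDOC, the brain form, had 3944, 4135 and 4854 counts in NC and 1575, 1491 and 1059 in LINC00862, 2.97-fold lower (log2 fold change -1.57, SE 0.17, edgeR adjusted p = 4.89e-05). ALDOA carried nearly all of the FPKM of the pair in both groups, at 95.0% ± 0.633 in NC and 98.4% ± 0.0701 in LINC00862 (SD, n = 3). The ratio of ALDOA to ALDOC lay between 16.6 and 21.5 in NC and between 59.2 and 64.7 in LINC00862.

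TPI1, GAPDH and PGK1, which catalyse consecutive steps, all fell. TPI1, which interconverts the triose phosphates, had 114175, 133854 and 154878 counts in NC and 45509, 39492 and 25347 in LINC00862 (3.49-fold lower, log2 fold change -1.80, SE 0.22, edgeR adjusted p = 0.000103). GAPDH, the NADH-producing step that many assays use as a loading control, had 372557, 455361 and 559813 counts in NC and 290160, 245777 and 198200 in LINC00862 (1.80-fold lower, log2 fold change -0.85, SE 0.22, edgeR adjusted p = 0.00857). PGK1, the first ATP-producing step, had 72751, 69241 and 74077 counts in NC and 27426, 24445 and 18521 in LINC00862 (2.90-fold lower, log2 fold change -1.54, SE 0.15, edgeR adjusted p = 2.82e-05). Each LINC00862 library lay below each NC library for these 3 genes. In FPKM, GAPDH had 2921 ± 577 in NC and 1458 ± 194 in LINC00862, the highest level among the 41 members in both groups.

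PGAM1, the widely expressed phosphoglycerate mutase, had 48101, 47718 and 45621 counts in NC and 9642, 8404 and 6005 in LINC00862. The 5.57-fold fall (log2 fold change -2.48, SE 0.16, edgeR adjusted p = 2.17e-06) was larger in size than those of TPI1, GAPDH and PGK1, though the differences between these genes were not tested. The muscle form PGAM2 had 1, 1 and 2 counts in NC and 1, 2 and 1 in LINC00862, at or under the floor in each library, so no fold is given.

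Enolase makes phosphoenolpyruvate. ENO1, the widely expressed form, had 303919, 314095 and 372548 counts in NC and 98026, 89715 and 47440 in LINC00862 (4.03-fold lower, log2 fold change -2.01, SE 0.25, edgeR adjusted p = 0.00011). ENO2 (ENSG00000111674; chromosome 12, 6913745 to 6923696), the neuronal form known as neuron-specific enolase, had 12962, 13986 and 14445 counts in NC and 982, 999 and 738 in LINC00862. ENO2 was thus 14.4-fold lower (log2 fold change -3.84, SE 0.17, edgeR adjusted p = 2.13e-07), against 4.03-fold for ENO1. Its share of the enolase FPKM went from 4.86% ± 0.322 to 1.45% ± 0.337 without overlap (exact permutation test, p = 0.1), and the ratio of ENO1 to ENO2 lay between 18.4 and 21.2 in NC and between 53.1 and 82.4 in LINC00862 (SD, n = 3). The summed enolase FPKM fell from 1008 ± 102 to 219 ± 68.7. ENO3, the muscle form, had 336 to 495 counts in NC and 410 to 500 in LINC00862 and was not called (log2 fold change 0.26, SE 0.25, edgeR adjusted p = 0.380). PFN1 overlaps ENO3 on the opposite strand, with 82112 mean counts in NC and 17769 in LINC00862.

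Pyruvate kinase closes glycolysis with its second ATP. PKM, the gene of the M1 and M2 forms, had 191777, 168907 and 210444 counts in NC and 117835, 111801 and 61229 in LINC00862 (1.87-fold lower, log2 fold change -0.90, SE 0.22, edgeR adjusted p = 0.00603). The gene-level counts do not separate M1 from M2. PKLR, the gene of the liver and red cell form, had 0 counts in each NC library and 4, 12 and 5 in LINC00862, an at least 6.67-fold higher level against the floor of 3 counts over the NC group. PKM still held 99.98% of the pyruvate kinase FPKM in LINC00862. HCN3 overlaps PKLR on the opposite strand with 1154 mean counts in NC and 6947 in LINC00862.

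Several of these genes lie close together on chromosome 12. GAPDH, TPI1, ENO2 and SLC2A3 lie within 1402 kb, between 6534512 and 7936187 on hg38, with 42.8 kb between TPI1 and ENO2. All 4 were lower in LINC00862, with log2 fold changes of -0.85, -1.80, -3.84 and -1.60. PFKM and LDHB, on the same chromosome outside this stretch, were higher in LINC00862.

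**Figure D2:**
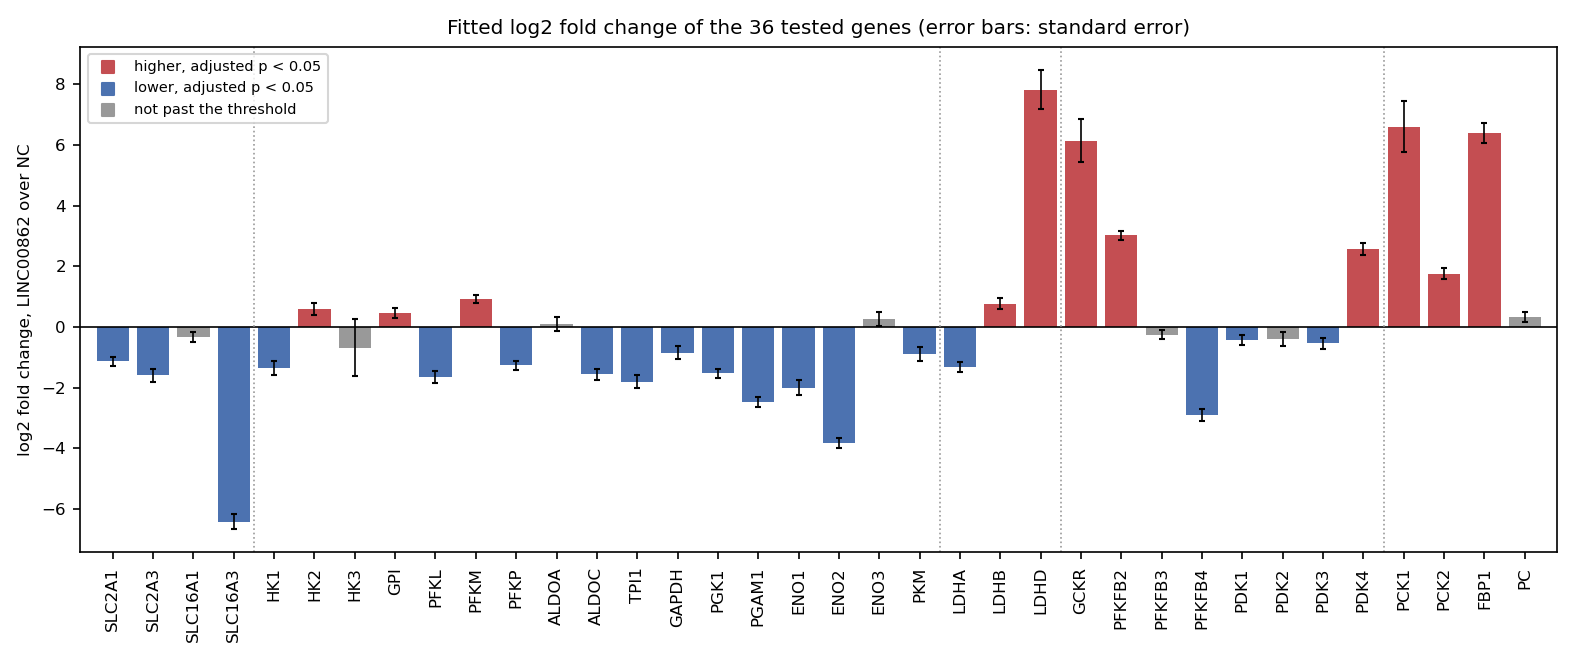
Fitted log2 fold change, LINC00862 over NC, of the 36 tested genes with its standard error, in the same order of roles, coloured by the call in edgeR. Glycolytic enzymes and carriers lie mostly below 0, with SLC16A3 at -6.43 and ENO2 at -3.84, while LDHD, PCK1, FBP1 and GCKR lie above 6.

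Lactate dehydrogenase links pyruvate to lactate. LDHA, the muscle form favoured by glycolytic tumours, had 210650, 223912 and 221288 counts in NC and 99016, 79942 and 67732 in LINC00862 (2.52-fold lower, log2 fold change -1.33, SE 0.17, edgeR adjusted p = 0.000121). LDHB, the heart form, rose from 28658, 33832 and 34971 counts to 62854, 53846 and 40141 (1.69-fold higher, log2 fold change 0.76, SE 0.18, edgeR adjusted p = 0.00464). Both were without overlap, and they moved in opposite directions. In FPKM, LDHA went from 548 ± 20.6 to 194 ± 24.2 and LDHB from 165 ± 17.1 to 249.96 ± 42.6 (SD, n = 3), so LDHB passed LDHA in each LINC00862 library. LDHA held 76.9% ± 1.35 of the pair in NC and 43.8% ± 1.58 in LINC00862, and the ratio of LDHA to LDHB lay between 3.13 and 3.63 in NC and between 0.733 and 0.834 in LINC00862.

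LDHD (ENSG00000166816; chromosome 16, 75111860 to 75116780), the mitochondrial enzyme that oxidises D-lactate, had 20, 0 and 4 counts in NC and 1879, 1731 and 1488 in LINC00862. It is given in full because of its values, after they were seen. The 3 LINC00862 libraries agreed closely while the NC libraries were near 0, and the log2 fold change was 7.82 (SE 0.65, edgeR adjusted p = 9.10e-06). Without NC replicate 1, which holds 20 of the NC counts, it was 9.68, so the size of the rise rests on very few NC counts. LDHD reached 10.3 ± 0.855 FPKM in LINC00862 (SD, n = 3), well under LDHA and LDHB.

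Isoenzyme shares were compared in 13 families with 34 isoenzymes. The shares of 27 isoenzymes did not overlap between the groups, each with p = 0.1 in the exact permutation test (two-sided, the smallest p possible) and p = 0.126 after Benjamini-Hochberg adjustment over the 34, so none could pass 0.05 in this design. For comparison, the FPKM of single genes did not overlap for 71.1% of all tested genes. Among the 27 were PGAM2, with 1 or 2 counts in each library, and PKLR, whose mean share differed by 0.0183 percentage points between the groups. Shares within a family sum to 100 and are not independent of each other. For PGAM1, PCK2 and FBP1 the family was made up almost wholly of 1 gene in both groups, at 99% or more of its FPKM.

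Bifunctional PFKFB enzymes make and break fructose 2,6-bisphosphate, the activator of phosphofructokinase and inhibitor of fructose bisphosphatase. PFKFB2, the heart form, had 1089, 770 and 823 counts in NC and 7947, 6963 and 5409 in LINC00862 (8.08-fold higher, log2 fold change 3.01, SE 0.16, edgeR adjusted p = 6.21e-07). PFKFB4, a form induced by hypoxia, had 2055, 1940 and 2221 counts in NC and 235, 310 and 225 in LINC00862 (7.53-fold lower, log2 fold change -2.91, SE 0.20, edgeR adjusted p = 2.73e-06). The pair moved in opposite directions by similar factors, and the ratio of PFKFB2 to PFKFB4 in FPKM went from between 0.222 and 0.318 in NC to between 13.5 and 20.6 in LINC00862. PFKFB3, the inducible form with high kinase activity, had 3877, 2920 and 3044 counts in NC and 2992, 2693 and 2000 in LINC00862 and was not called (log2 fold change -0.27, SE 0.15, edgeR adjusted p = 0.143). PFKFB1, the liver form, had 9, 7 and 5 counts in NC and 0, 0 and 8 in LINC00862 and did not pass the filter. PFKFB2 held 9.03% ± 0.740 of the family FPKM in NC and 59.1% ± 0.752 in LINC00862, PFKFB3 held 55.3% ± 3.01 and 37.1% ± 0.603, and PFKFB4 held 35.3% ± 3.81 and 3.75% ± 0.750 (SD, n = 3). The family sum hardly moved, at 14.6 ± 1.53 and 16.1 ± 2.37 FPKM. YOD1 overlaps PFKFB2 on the opposite strand, with 1839 mean counts in NC and 2167 in LINC00862.

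Pyruvate dehydrogenase kinases switch off the entry of pyruvate into the citrate cycle. PDK4, the form known from fasting and fat oxidation, had 179, 156 and 152 counts in NC and 1039, 854 and 831 in LINC00862 (5.97-fold higher, log2 fold change 2.58, SE 0.19, edgeR adjusted p = 4.66e-06). PDK2, the form with the highest mean FPKM of the 4 in both groups, had 1923, 1905 and 2696 counts in NC and 1938, 1812 and 973 in LINC00862 and was not called (log2 fold change -0.40, SE 0.24, edgeR adjusted p = 0.174). PDK1, a known HIF target, and PDK3 were slightly lower, with log2 fold changes of -0.44 (SE 0.16, edgeR adjusted p = 0.0381) and -0.54 (SE 0.19, edgeR adjusted p = 0.0298). PDK1 lost its call without NC replicate 1 or 2 or any 1 of the LINC00862 replicates, at -0.29 to -0.46, and PDK3 lost its call without NC replicate 1 or any 1 of the LINC00862 replicates, at -0.41 to -0.61. In LINC00862 replicate 3, PDK4 (2.72 FPKM) passed PDK2 (2.64 FPKM). PDK4 held 5.01% ± 0.593 of the PDK FPKM in NC and 30.1% ± 4.53 in LINC00862, and the ratio of PDK1 to PDK4 lay between 4.88 and 6.51 in NC and between 0.658 and 0.755 in LINC00862 (SD, n = 3).

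GCKR (ENSG00000084734; chromosome 2, 27496839 to 27523684) encodes a regulatory protein known from hepatocytes, where it controls the first step of glucose use. It had 0, 7 and 3 counts in NC and 252, 207 and 236 in LINC00862 (log2 fold change 6.15, SE 0.70, edgeR adjusted p = 6.54e-05), and it too was chosen for full description after its values were seen. The log2 fold change was 5.55 without NC replicate 1 and 7.26 without NC replicate 2.

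Of the 4 tested gluconeogenic enzymes, 3 moved the other way from most of glycolysis. Genes of glucose release are not among these enzymes and did not move in a single direction. SLC37A4 fell (log2 fold change -1.03, edgeR adjusted p = 0.000314), while G6PC3 rose (log2 fold change 0.49, edgeR adjusted p = 0.0196). FBP1 (ENSG00000165140; chromosome 9, 94603133 to 94640137), the liver fructose bisphosphatase that undoes the phosphofructokinase step, had 8, 13 and 17 counts in NC and 1262, 978 and 850 in LINC00862. The rise was 84.8-fold without overlap (log2 fold change 6.41, SE 0.33, edgeR adjusted p = 5.44e-07), from 0.107 ± 0.0388 to 8.37 ± 1.10 FPKM (SD, n = 3). PCK2, the mitochondrial phosphoenolpyruvate carboxykinase, rose from 1791, 1949 and 2142 counts to 7245, 6975 and 4661 (3.38-fold higher, log2 fold change 1.76, SE 0.18, edgeR adjusted p = 2.79e-05). PCK1, the cytosolic form that fasting and glucagon induce in liver, had 0, 0 and 3 counts in NC and 116, 119 and 77 in LINC00862. With 3 counts in NC against 312 in LINC00862, the ratio per library size was 99.1 with a 95% counting interval of 33.6 to 483, and PCK1 passed the test (edgeR adjusted p = 0.000129), while its fitted log2 fold change of 6.61 depends on the prior count and was 9.75 without NC replicate 3, which holds the 3 counts.

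These rises began from very different levels. PCK2 held 99.97% of the PCK FPKM in NC and 99.0% in LINC00862, so the mitochondrial form stayed the main one. PC, pyruvate carboxylase, had 1514, 1206 and 1426 counts in NC and 1849, 1814 and 1237 in LINC00862, overlapped between the groups and was not called (log2 fold change 0.33, SE 0.16, edgeR adjusted p = 0.0983). LRFN4 overlaps PC on the opposite strand, with 2496 mean counts in NC and 546 in LINC00862. FBP2, the muscle fructose bisphosphatase, had 0 counts in NC and 2, 0 and 0 in LINC00862, and no fold is given. As a description added after the values were seen, the summed FPKM of the phosphofructokinases was 796 to 1572 times that of the fructose bisphosphatases in NC and 5.84 to 7.00 times in LINC00862, and pyruvate kinase was 42.3 to 52.3 times and 6.34 to 7.85 times the phosphoenolpyruvate carboxykinases. In both groups the glycolytic enzyme of each opposed pair thus had the higher level.

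Neighbouring glucose genes, from lists that share none of the 41 members, numbered 136, of which 123 were tested, 62 rose and 35 fell (median 0.46 on the log2 scale). The shares called are to be read against the 64.2% of all genes. Of 16 citrate cycle genes 10 rose and 2 fell (median 0.74), among them IDH3A (log2 fold change 1.92), with IDH3G (-1.22) and IDH3B (-1.12) as the 2 that fell. The redox shuttles pass electrons of cytosolic NADH into mitochondria. Of their 9 genes, 7 rose and 0 fell in edgeR (0 also at an unadjusted p under 0.05, in DESeq2 and in limma). GPD1 (3.24) and GOT1 (1.51) rose most. Of 10 genes of pyruvate entry into mitochondria 6 rose and 3 fell (median 0.64), with the carrier subunit MPC1 (2.86) and PDHX (1.21) rising most and the phosphatase genes PDP1 (-1.33) and PDPR (-0.73) falling most.

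Among 8 tested genes of the pentose phosphate pathway 4 fell and 1 rose (median -0.53), with PGD (-0.82) among those that fell and H6PD (0.63) rising; 3 were called instead of 5 without NC replicate 2 or without LINC00862 replicate 1. Of 16 tested genes of glycogen metabolism 5 rose and 7 fell (median -0.19), with PHKA1 (3.21) and PYGM (3.13) rising most and GBE1 (-1.68) and PGM2 (-1.28) falling most. Of 7 genes of fructose, galactose and sorbitol entry 2 rose, SORD (1.43) and TKFC (0.59), and 3 fell, with KHK (-1.25) and GALT (-0.91) falling most (median -0.10; 3 called without NC replicate 2). Of 8 tested genes of glucose release and other sugar carriers 5 rose and 3 fell (median 0.99), with SLC2A4 (5.57), the insulin-responsive GLUT4, and SLC2A5 (4.32, from 0, 4 and 0 counts in NC) rising most and SLC2A12 (-4.05) and SLC2A10 (-2.53) falling most. Of 4 tested lactate carriers and partners, SLC16A7 (2.47) and SLC16A8 rose and EMB (-0.85) fell (median 1.46). SLC16A8 had 3 counts in all NC libraries and 311 in LINC00862, a ratio of 98.8 per library size with a 95% counting interval of 33.5 to 482.

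Further isoenzymes of the same steps that are not among the 41 rose in 6 of 10 and fell in 3 (median 0.67). LDHC, the testis lactate dehydrogenase, had 0 in NC and 83, 85 and 102 in LINC00862, at least 85.7-fold higher against the floor of 3 counts over the NC group. PGAM4 (-2.21) and MINPP1 (-0.75) fell most, and PGAM4 lies within PGK1. Pseudogenes of the members had at most 1.99% of the counts of their parent gene, the highest being TPI1, except those of FBP2, which has almost no counts itself; of 12 tested pseudogenes 4 rose and 2 fell, among them PGAM1P7 (3 counts in NC and 70 in LINC00862), TPI1P1 (-1.86) and GAPDHP1 (-1.10), and reads shared with a parent gene cannot be told apart.

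Regulators of glycolytic and gluconeogenic genes rose in 14 of 20 tested and fell in 3 (median 1.303). FOXA2, a pioneer factor of the liver lineage, rose by a fitted log2 fold change of 9.70, which rests on few NC counts (0, 4 and 0 in NC, and 1261, 891 and 1249 in LINC00862). MYC (-1.21) and NR3C1 (-0.89), the glucocorticoid receptor gene, fell most. PPARGC1A, the coactivator known to drive gluconeogenic genes in fasting liver, was chosen after its values were seen, with 243, 192 and 159 counts in NC and 31737, 27632 and 23535 in LINC00862 (log2 fold change 7.22). The genes of the HIF subunits, also chosen after their values were seen, differed. HIF1A was not called (log2 fold change -0.38, SE 0.19, edgeR adjusted p = 0.112), while EPAS1, which encodes HIF-2α, rose by a log2 fold change of 1.56 (edgeR adjusted p = 0.000109) and ARNT, their partner subunit, by 1.52 (edgeR adjusted p = 9.35e-05). Of 15 hypoxia-response genes outside glycolysis 4 rose and 6 fell (median -0.13), with CA12 (5.76) and EGLN3 (2.73) rising most and CA9 (-7.38) and BNIP3 (-3.68) falling most, so this list did not move in 1 direction.

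**Figure D3:**
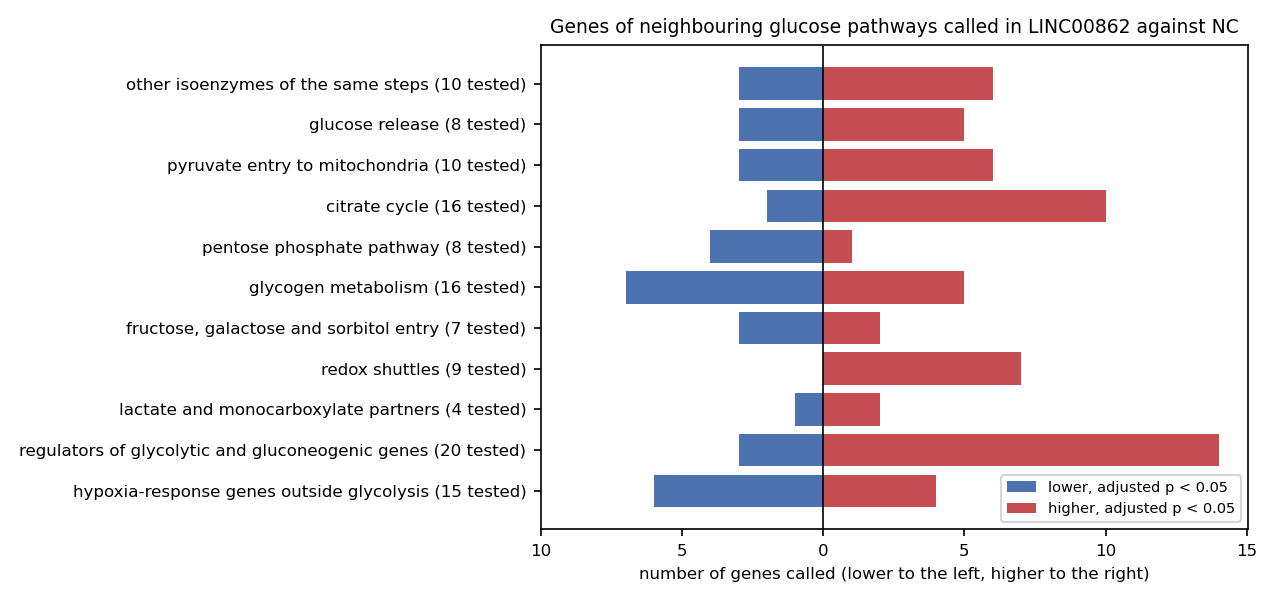
Number of genes called in edgeR as lower (left) or higher (right) in LINC00862 in each of 11 lists of neighbouring glucose genes, with the number tested in each list. Citrate cycle genes, redox shuttles and regulators lie mostly to the right, and the glycogen, pentose phosphate, hypoxia and fructose lists have more genes to the left.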

How the data were processed

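The groups came from the sample labels, and columns were matched to samples by name. The authors deposited raw read counts per gene and FPKM, the fragments scaled by transcript length and mapped fragments. Per the submitters' processing notes, cutadapt 1.9, HISAT2 2.0.4, UMI-tools, StringTie 1.3.4d, DESeq2 and edgeR were used on hg38. Libraries were poly(A)-selected and strand-marked with dUTP. Whether counting used the strand and whether molecular identifiers were collapsed is not given in the sources used here. Coordinates are those of the deposited table, and 12 of the 41 genes have the same ones in GENCODE 29.

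Tests on counts were run in edgeR 4.0.16 under R 4.3.3 (filterByExpr, TMM, quasi-likelihood test, Benjamini-Hochberg over 20741 genes, false discovery rate 0.05). A run on simulated counts checked the code only. It changed far fewer genes than were called here, so it does not show how the test behaves with this many changes. Standard errors were derived from the F statistic. Shares of FPKM used exact permutation tests (scipy 1.17.1), and the floor was 3 counts. Intervals and floors cover counting error only. Alternatives were DESeq2 1.42.0, upper quartile scaling, library size only, every gene with at least 1 count, limma 3.58.1 on log2(FPKM + 1) and log2(FPKM + 0.1), a replicate block, a false discovery rate of 0.01 and leaving out each library. Family members that were called with a fold of at least 2 or had the highest level in their family, and GPI, TPI1, GAPDH and PGK1, are given by library. Outside the 41, LINC00862 and the 2 largest rises and falls called in each list are named, except some genes whose results are not reported here. The genes and lists were chosen with earlier results of these data known. The libraries all differed by more than sampling noise. The list genes GYS2, SLC5A8, APOC3 and DLK1 were not analysed here.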

Additional observations from a re-analysis of the deposited data

How the results depend on the processing

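Of 504 values (36 tested genes under 14 alternatives), 464 kept their direction and side of the threshold, 33 lost the call, 3 gained it and 4 changed sign, and 29 genes were the same throughout. The values that lost a call belonged to HK2, GPI, PDK1 and PDK3. PC gained one with upper quartile scaling (0.54), and SLC16A1 with library size only (-0.50) and without NC replicate 3. ALDOA, never called, changed sign with library size only (-0.0463) and with limma on log2(FPKM + 1) (-0.0433) and log2(FPKM + 0.1) (-0.0434), and ranged from -0.0864 (without NC replicate 1) to 0.33 (without NC replicate 3) when 1 library was left out. Between 25 and 29 members were called in all settings, and between 10863 and 14285 genes of the table. The median of all genes moved from 0.11 to 0.32 with upper quartile scaling and to -0.05 without scaling beyond library size. Of the called members, 62.1% were lower, 57.1% under the first and 67.9% under the second of these scalings. With the replicate block, 26 members were called. Same-numbered libraries did not deviate together (correlations of -0.05, -0.03 and -0.01), so the numbers were not taken as pairs.

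Leaving out 1 library changed these differences in share, in percentage points: HK3 from -0.049 to 0.0382, FBP1 from -0.0582 to 0, FBP2 from 0 to 0.0582 and SLC2A2 from 0 to 0.0745. At their counts, no difference was detectable for HK3, PFKFB1, PGAM2 and FBP2, and 0.1 is the lowest p the exact permutation test of a share can give. The causes were not tested.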
